A study of Mus musculus with 10 samples.

Results

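The Timm and Tomm genes encode most of the machinery that carries nuclear-encoded proteins into mitochondria. Members were the listed coding transcripts whose gene symbol starts with Timm or Tomm after the transcript identifiers were matched to the GENCODE M21 annotation, which gave 23 of 14534 coding transcripts. They were followed in all 10 libraries of CGR8 cells, a feeder-free mouse embryonic stem cell line of the 129 strain kept in leukemia inhibitory factor. The study asked whether drugs that block translation separate ribosome footprints of translating ribosomes from other RNase resistant fragments. Footprints were sequenced from untreated cells, from cells given the pateamine A analog DMDA-PatA (1 µM, 10 min), from cells given harringtonine (2 µg/ml, 10 min) and from cells given puromycin (0.2 mg/ml, 20 min), with 2 libraries per condition. The solvent DMSO was set to the same amount in every culture, and cycloheximide was present in all cells from washing and lysis onwards. The other 2 libraries held whole transcriptome reads of untreated cells, and no transcriptome library of drug-treated cells was analysed here. Nuclei and most mitochondria were spun out of the lysates, so the footprints are those of the remaining extract of 1 cell line.

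Nearly all mitochondrial proteins are made on ribosomes outside the organelle and must cross its membranes. The TOM complex is the entry gate of the outer membrane: Tomm20, Tomm22 and Tomm70a act as receptors, Tomm40 forms the pore, and Tomm5, Tomm6 and Tomm7 are small subunits around it. Behind it, the TIM23 translocase takes proteins with a presequence (Timm17a, Timm17b, Timm21, Timm23, Timm44, Timm50), the TIM22 translocase inserts carrier proteins (Timm22, Timm29), and small chaperones of the intermembrane space (Timm8a1, Timm8b, Timm9, Timm10, Timm13) escort hydrophobic passengers between them. A pair of genes with a similar name does other work: Tomm34 is a cytosolic cochaperone, and Timmdc1 helps to assemble respiratory complex I. DMDA-PatA acts on the helicase eIF4A before a start codon is reached, harringtonine halts ribosomes close to the start codon, and puromycin releases growing chains as a mimic of aminoacyl tRNA.

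The start regions of the members on which the results turn were read from the GRCm38 genome at the positions of the GENCODE M21 transcripts. Each line gives 20 bases before the start codon, the start codon in capitals and 7 bases after it. The first 5 are shown because their 5' UTR gained footprints with DMDA-PatA, and the last 3 because they lost the largest share of coding footprints to that drug.
Timm17a: tcgcgcgggttggagccaagATGgaggaat
Timm8b: cgaagcgcctgactccgacaATGgccgagc
Tomm6: ggtacgtgcttagtgctggtATGgcttcca
Tomm7: tccgctggtccgtcgtcgccATGgtgaagc
Tomm34: tgtttcccagcccacccgagATGgccccca
Tomm20: tacgccccagtcgagcgaagATGgtgggcc
Tomm70a: ggcggcggaggacagtcgtcATGgccgcct
Timm9: aataaacatactgaaagaatATGgctgcac

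These start codons lie at chr1:135313717-135313719 on the minus strand for Timm17a, at chr9:50603956-50603958 on the plus strand for Timm8b, at chr17:47688024-47688026 on the minus strand for Tomm6, and at chr5:23844071-23844073 on the minus strand for Tomm7. Tomm34 starts at chr2:164071037-164071039 (minus), Tomm20 at chr8:126945722-126945724 (minus), Tomm70a at chr16:57121862-57121864 (plus) and Timm9 at chr12:71126369-71126371 (minus). Of the 23 members, 19 had an intact reading frame at the listed start. For the other 4 (Timm8b, Timm9, Tomm20 and Tomm70a) the annotated transcript begins at another base than the deposited one, and the frame was found after shifting the start by 9, 27, 81 and 11 nt.

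The ribosome profiling libraries held 618334 to 10614247 reads on coding ORFs, and the transcriptome libraries 16649611 and 38046741. Members took 14346 and 17797 of the control reads, 1385 and 1904 of those with DMDA-PatA, 5704 and 4525 of those with harringtonine, and 2330 and 3885 of those with puromycin. Among the 10 stem cell markers checked, control footprints per kb ran from 287 to 34222 (median 3833), and among 11 markers of other cells from 3.83 to 3428 (median 135), with the fibroblast collagens Col1a1 and Col1a2 the highest of these at 3428 and 692. No marker of either list was at 0, and the part of other cells in the results was not tested. The second replicate divided by the first gave a median over 21 members of 0.969 for the controls, of 1.66 under DMDA-PatA, of 0.591 under harringtonine and of 0.975 under puromycin.

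Not every member could be measured. Timm23, the channel of the TIM23 translocase (chr14:32180162-32201898), and Timm8a1 (chrX:134537256-134541865) were listed at 0 ORF reads in all 10 libraries. All 598 windows of 30 bases along the Timm23 coding sequence, and 89.7% of the 262 along that of Timm8a1, match several places of the genome, and reads with several matches had been left out by the authors. The same share was 89.7% for Tomm20, where 42 of 406 windows were unique, 52.4% for Tomm22, 33.1% for Tomm7, 30.8% for Timm17a, 20.6% for Timm21 and 19.1% for Tomm5. Levels of these genes are therefore low estimates, and the few reads of Tomm20 come from a short stretch. The counting was not stated to use strand, so reads of Tomm6, Timm8b, Timm9, Timm13, Timm17b, Timm29, Tomm40, Tomm40l and Tomm70a cannot be told apart from those of other genes where these are annotated across them. Of the 23 members, 21 passed the filter on low counts for the ORF (at least 10 reads in at least 2 libraries) and 14 for the 5' UTR. Timm17b, Timm22, Timm44, Timm50, Tomm20 and Tomm22 had too few 5' UTR reads, and the 5' UTR of Tomm5 (5 nt) had no value. On the 5' UTR, Timm23 held 0 or 1 read in each library and Timm8a1 at most 2.

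In untreated cells Tomm6, Tomm7, Timm13 and Timm8b carried the densest footprints. On the scale of spike-in normalised footprints per kb of coding sequence, Tomm6 reached 5792 ± 1008 (SD, n = 2) and Tomm7 4639.7 ± 97.3, followed by the chaperones Timm13 at 3073 ± 99.8 and Timm8b at 2784 ± 39.9. Tomm34 and the pore Tomm40 followed at 2431 ± 35.5 and 2429 ± 159.5, which did not differ beyond their spread. The receptor Tomm70a stood at 1842 ± 20.4. The lowest measured levels were those of Timm29 at 161 ± 0.608, Timm21 at 115 ± 15.3 and Tomm40l, a relative of the pore gene, at 90.9 ± 5.33. In mRNA the order was another one: Tomm70a had the most transcriptome reads per kb (5144 ± 218), above Tomm6 (2813 ± 459.9) and Tomm34 (2805 ± 155).

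Translation efficiency was taken as control footprints over transcriptome reads of the same ORF, relative to the typical coding sequence. Tomm7 had 659 and 832 control footprint reads for 193 and 486 transcriptome reads, and its log2 efficiency was 2.77 ± 0.12 (SE), with an edgeR adjusted p of 1.2e-10. Timm8b stood at 2.56 ± 0.13 (adjusted p 2.6e-10) and Tomm6 at 2.50 ± 0.13 (adjusted p 5.0e-10). The share of coding sequences with a higher efficiency was 0.853% for Tomm7, 1.16% for Timm8b and 1.29% for Tomm6. In all, 15 of 21 members were higher than the typical coding sequence, where 34.2% of 13717 coding sequences were, and 2 were lower, where 36.5% were. The 2 lower ones were Tomm40l (−1.05 ± 0.17, adjusted p 5.0e-05) and Timmdc1 (−0.62 ± 0.11, adjusted p 0.00018). Tomm40l had 66 and 79 control footprint reads for 302 and 600 transcriptome reads, and Timmdc1 350 and 380 for 1047 and 2422. Timm22, the channel of the carrier translocase, stood at −0.22 ± 0.13 (adjusted p 0.15) with 217 and 327 footprint reads for 577 and 1375 transcriptome reads.

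By role, all 4 tested small chaperones, 5 of 8 TOM genes and 4 of 5 TIM23 genes were higher. The median over the members was 1.25 on the log2 scale against −0.04 over all coding sequences. Short coding sequences had high efficiencies as a class: the median over all 364 of up to 300 nt was 0.96, and the 6 members of that length (Tomm6, Tomm7, Timm8b, Timm9, Timm10, Timm13) were all higher with a median of 2.21, where 64.8% of the 364 were higher. Across the 21 members, log2 efficiency and coding length had a Spearman correlation of −0.68, and across 13717 coding sequences of −0.44, a description over genes of the same libraries. The calls of Timm50 and Timm44 depend on 1 library: the value of Timm50 was 0.22 without control replicate 1 (adjusted p 0.18) and 0.21 without transcriptome replicate 1 (adjusted p 0.22), and that of Timm44 was 0.32 without transcriptome replicate 2 (adjusted p 0.054).

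**Figure D1:**
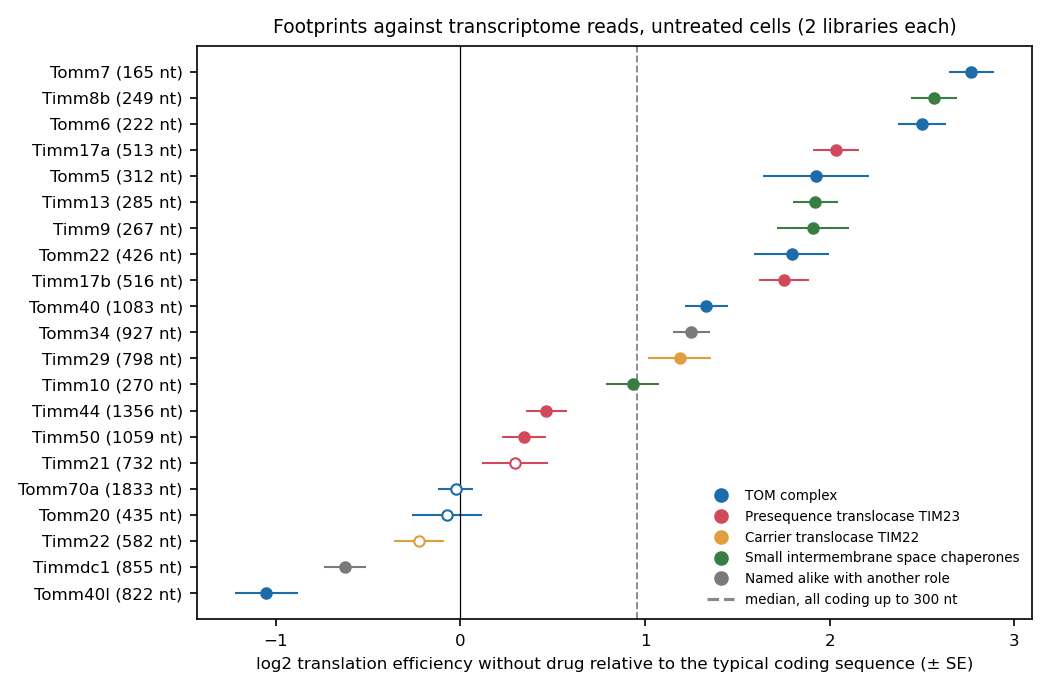
Log2 translation efficiency without drug (x axis) of the 21 measured members, with bars for the SE of the edgeR fit over 2 control footprint and 2 transcriptome libraries, filled points for an adjusted p under 0.05 and a dashed line at the median of all coding sequences up to 300 nt (0.96). Tomm7, Timm8b and Tomm6 sit highest at 2.77, 2.56 and 2.50, and Tomm40l lowest at −1.05.

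DMDA-PatA lowered the coding footprints of every measured member. All 21 fell in the edgeR test, against 99.3% of 12499 transcripts tested, and none rose, against 0.0560%, so the count alone does not set the members apart. With each of the 3 drugs the estimates of all 21 members were below 0, and DESeq2 and limma called none higher either. The comparisons of the drugs with the control share the control libraries. The spike-in was added in proportion to total RNA, so levels are relative to that RNA, and in these bulk libraries less mRNA of a gene and fewer ribosomes on it cannot be told apart. The median log2 change was −3.64 over the members and −4.32 over all transcripts. The receptor Tomm20 had the deepest fall. Its normalised footprints were 92.0 and 124 in the controls and 1.26 and 1.62 with DMDA-PatA, from 78 and 137 reads down to 2 and 2. This is a log2 change of −6.14 ± 0.65 (adjusted p 1.9e-20), with groups that lie far apart.

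Tomm70a, the receptor for carrier precursors, had 3402 and 3349 normalised footprints in the controls and 56.8 and 87.7 with DMDA-PatA, a log2 change of −5.55 ± 0.54 (adjusted p 6.9e-24). The chaperone Timm9 went from 255 and 338 to 8.84 and 8.12 (−5.11 ± 0.54, adjusted p 8.9e-21), and the pore Tomm40 from 2509 and 2753 to 58.7 and 144 (−4.70 ± 0.52, adjusted p 3.3e-19). In these 3 genes, too, the highest treated library stayed far under the lowest control. The smallest falls were those of the receptor Tomm22 and the small subunit Tomm5. Tomm22 had 104 and 115 in the controls and 17.0 and 51.1 with DMDA-PatA (−1.70 ± 0.45, adjusted p 0.00017). Tomm5 had 141 and 70.7 in the controls and 23.99 and 40.6 with the drug (−1.72 ± 0.45, adjusted p 0.00016). The groups do not overlap in either gene, but both have replicates that differ widely, and without control replicate 1 the fall of Tomm5 was no longer called (−1.14, adjusted p 0.073).

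With DMDA-PatA, Timm9 kept the smallest share of its coding footprints among the measured small chaperones, from 14 and 10 reads with the drug. Timm9 and Timm10 build the same hexameric chaperone, and Timm10 had 288 and 218 in the controls and 20.8 and 19.5 with DMDA-PatA, which left 7.97% of its mean control footprints against 2.86% for Timm9. Timm8b and Timm13, which pair with other members of the family, kept 17.0% and 8.99%. Between those genes the differences were not tested.

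**Figure D2:**
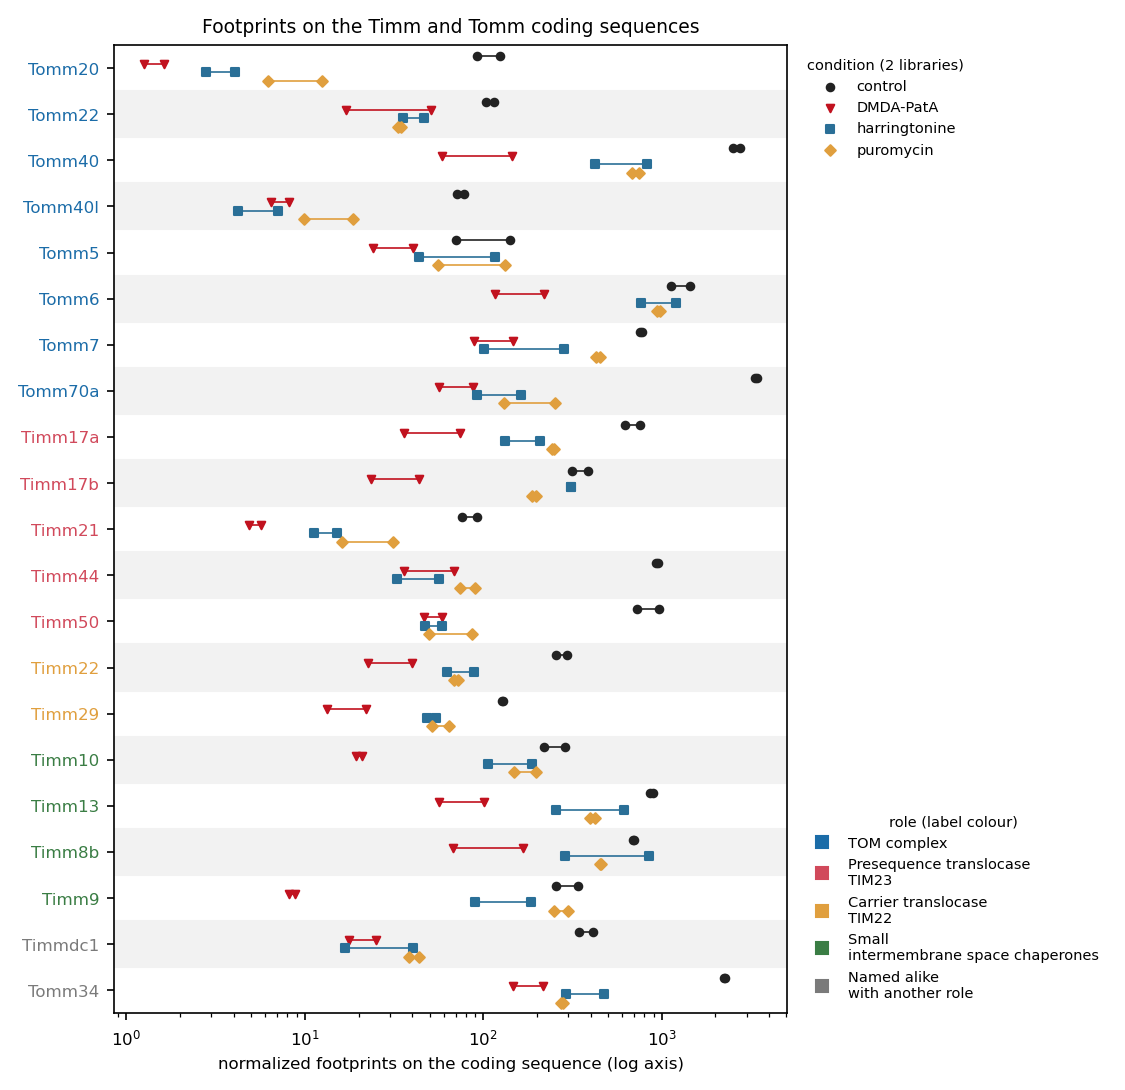
Spike-in normalised ORF footprints (log axis) of the measured members in each of the 8 ribosome profiling libraries, 1 line per gene, 1 point per library coloured by condition and a bar between the 2 replicates, with the gene label coloured by role. All DMDA-PatA points lie left of the control points of the same gene, whereas for Timm9, Tomm5, Tomm6 and Timm8b points of harringtonine or puromycin reach or pass the controls.

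Harringtonine lowered the coding footprints of 16 of 21 members, against 92.9% of all transcripts, and raised none, against 0.512%. The median log2 change was −2.01 over the members and −2.97 over all transcripts. The receptors Tomm20 and Tomm70a fell furthest: Tomm20 went to 4.06 and 2.80 (−4.97 ± 0.59, adjusted p 4.1e-16) and Tomm70a to 162 and 91.7 (−4.74 ± 0.52, adjusted p 1.1e-18). Next came the TIM23 genes Timm44, which ties the import motor to the channel, at 56.8 and 32.9 against 957 and 927 in the controls (−4.40 ± 0.50), and Timm50, the receptor of that translocase, at 58.8 and 46.9 against 959.6 and 729.7 (−4.00 ± 0.48). None of these groups overlap with the controls.

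The 5 members not called were Timm10, Timm17b, Timm8b, Tomm5 and Tomm6. Timm17b, a channel subunit of TIM23, had 387 and 315 in the controls and 310.5 and 309 with harringtonine (−0.18 ± 0.42, adjusted p 0.68), and both treated values lie just under the lower control. Timm8b had 700.3 and 686 in the controls and 848 and 286 with harringtonine (−0.29 ± 0.43, adjusted p 0.51), so that 1 treated library was above and 1 below the controls. Tomm6 had 1444 and 1128 against 1196 and 769 (−0.39 ± 0.44, adjusted p 0.39), with overlapping groups. Without harringtonine replicate 1, falls were called for Timm8b (−1.28, adjusted p 0.0012), Tomm5 (−1.27, adjusted p 0.0018) and Timm10 (−1.26, adjusted p 0.00091), and without harringtonine replicate 2 the value of Timm8b was 0.29 (adjusted p 0.44). The calls of Timm13 and Timm9 are the weakest of the 16 (−1.01 ± 0.44 and −1.12 ± 0.43): that of Timm13 was lost without either control or without harringtonine replicate 2 (adjusted p 0.13, 0.10 and 0.19), and that of Timm9 without control replicate 2 or harringtonine replicate 2 (0.15 and 0.068).

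Puromycin lowered 14 of 21 members, against 90.1% of all transcripts, and raised none, against 0.352%. The median log2 change was −1.68 over the members and −2.48 over all transcripts. Tomm70a fell most, to 130.3 and 254 (−4.12 ± 0.50, adjusted p 5.5e-15), followed by Tomm20 at 12.4 and 6.22 (−3.61 ± 0.57, adjusted p 9.0e-10) and Timm50 at 49.6 and 87.0 (−3.60 ± 0.48, adjusted p 6.7e-13). All of these lie below the control libraries without overlap. At the other end, Timm9 had 298 and 249.9 with puromycin and 255 and 338 in the controls (−0.12 ± 0.42, adjusted p 0.79), and Tomm5 had 132 and 56.0 against 141 and 70.7 (−0.19 ± 0.44, adjusted p 0.67). In both genes the treated and the control values interleave.

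Besides these, Tomm6 (−0.42), Timm10 (−0.55), Timm8b (−0.61), Tomm7 (−0.81) and Timm17b (−0.86) were not called. With 2 libraries per condition, differences of this size had standard errors of 0.43 to 0.44 and the test does not show that these genes were unaffected. DESeq2 did call Timm17b lower with puromycin (−0.86, adjusted p 0.033). When the size factors of the DMDA-PatA and harringtonine libraries were exchanged, a reading of the study's supplementary means that could not be settled, 20 members were called lower with harringtonine and 18 with puromycin. Without harringtonine replicate 1 falls with puromycin were called for Timm17b (adjusted p 0.0049), Tomm7 (0.0089) and Timm8b (0.047), without harringtonine replicate 2 for Timm17b (0.0047) and Tomm7 (0.0093), and without either DMDA-PatA library for Timm17b (0.040). The puromycin calls of Timm13 (−1.09 ± 0.44) and Timm29 (−1.13 ± 0.45) were lost without any 1 of the control or puromycin libraries (adjusted p 0.058 to 0.12).

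The drugs were then compared with each other in the same fit. Footprints were lower with DMDA-PatA than with harringtonine for 12 of 21 members, against 52.8% of all transcripts, and higher for none, against 0.432%. They were lower with DMDA-PatA than with puromycin for 15 of 21, against 67.4%, and higher for none, against 0.432%. For the direction with no call, edgeR gave no unadjusted p under 0.05 in either comparison, and DESeq2 and limma called none. Timm9 differed most: its log2 difference was −3.99 ± 0.53 between DMDA-PatA and harringtonine (adjusted p 4.4e-12) and −4.99 ± 0.54 between DMDA-PatA and puromycin (adjusted p 7.3e-18). Timm10 was at −2.85 ± 0.47 and −3.09 ± 0.48, and Timm17b at −3.21 ± 0.47 and −2.53 ± 0.47. All 4 measured small chaperones were lower with DMDA-PatA than with either other drug. For Tomm22, Timm50, Timm44, Tomm40l and Timmdc1 neither difference passed the test, with values between −0.93 and 0.43. Between harringtonine and puromycin no member was called, against 9.94% lower and 1.20% higher over all transcripts, with differences from −1.36 (Tomm20) to 0.68 (Timm17b). There edgeR gave an unadjusted p under 0.05 for 2 members (Tomm7 and Timm9), DESeq2 called 0, limma called 1, and with the size factors exchanged 7 were lower with harringtonine. The calls of Tomm34 and Tomm5 between DMDA-PatA and harringtonine were lost without several single libraries. Without DMDA-PatA replicate 1 Tomm34, Tomm5, Timm17a, Timm22 and Timm29 were all lost (adjusted p 0.071 to 0.22), leaving 7 members. Tomm5 was also lost without harringtonine replicate 1 (0.42), and Tomm34 also without harringtonine replicate 1 (0.16) or any 1 of the control or puromycin libraries (0.068 to 0.077). Between DMDA-PatA and puromycin the calls of Timm22, Tomm70a, Tomm5 and Tomm20 were lost without DMDA-PatA replicate 1 (0.061 to 0.20), those of Timm22, Tomm5, Tomm20 and Timm21 without puromycin replicate 1 (0.069 to 0.25), and those of Timm22 and Tomm70a without puromycin replicate 2 (0.12 and 0.26).

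Because nearly every transcript lost footprints, the members were also set against the typical transcript, with TMM normalisation in place of the spike-in. The shift that this takes out is 18.9-fold under DMDA-PatA, 7.43-fold for harringtonine and 5.48-fold for puromycin. On this relative scale 11 members were higher with DMDA-PatA, against 18.8% of all transcripts, and 4 were lower, against 23.6%. With harringtonine 13 were higher, against 26.6%, and 5 lower, against 30.0%. With puromycin 11 were higher, against 24.3%, and 6 lower, against 24.9%.

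With DMDA-PatA the largest relative values were those of Tomm5 (2.52 ± 0.36, adjusted p 1.5e-05) and Tomm22 (2.45 ± 0.29, adjusted p 1.5e-06), followed by Timm8b (1.59 ± 0.25) and Tomm7 (1.50 ± 0.21). Tomm5 and Tomm22 are weakly expressed, with means of 79.0 and 88.9 normalised transcriptome reads, and their replicates differ widely. With harringtonine the largest relative values were those of Timm17b (2.77 ± 0.22, adjusted p 5.0e-09), Tomm6 (2.48 ± 0.19) and Timm8b (2.45 ± 0.24), and with puromycin those of Timm9 (2.31 ± 0.22, adjusted p 7.5e-08), Tomm5 (2.23 ± 0.34) and Tomm6 (2.04 ± 0.19). On the spike-in scale each of these changes was negative: Tomm7, for example, had 777 and 754 normalised footprints in the controls, 88.4 and 147 under DMDA-PatA, 282 and 101 under harringtonine and 449 and 427 under puromycin. Tomm6 had 1444 and 1128 in the controls, 117 and 218 with DMDA-PatA and 941 and 977 with puromycin. Every treated library of Tomm7 is below its controls, whereas the harringtonine values of Tomm6 overlap them. Tomm70a was lower than the typical transcript with all 3 drugs (−1.34 ± 0.23, −1.90 ± 0.22 and −1.65 ± 0.22), and Tomm20 was lower as well (−2.005 ± 0.64, −2.12 ± 0.48 and −1.22 ± 0.46). The call of Tomm20 was lost with DMDA-PatA when either DMDA-PatA library was left out (adjusted p 0.082 and 0.15), and with puromycin without either harringtonine library or without puromycin replicate 2 (0.051, 0.051 and 0.43). With the DESeq2 test both calls of Tomm20 were lost (adjusted p 0.074 and 0.19).

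Timm9 changed sides between the drugs. It was lower than the typical transcript with DMDA-PatA (−0.88 ± 0.34, adjusted p 0.043), and higher with harringtonine (1.68 ± 0.22, adjusted p 1.8e-06) and puromycin. The DMDA-PatA value of Timm9 lost its call without control replicate 2 (−0.56, adjusted p 0.25), without either DMDA-PatA library (−1.25 and −0.54, adjusted p 0.056 and 0.39) and without either harringtonine library or puromycin replicate 1 (0.062 to 0.066). Tomm40 also went from lower with DMDA-PatA (−0.55 ± 0.22, adjusted p 0.047) to higher with harringtonine (0.74 ± 0.20) and puromycin (0.57 ± 0.21), and its DMDA-PatA call was lost when control replicate 1, control replicate 2, DMDA-PatA replicate 1, either harringtonine library or puromycin replicate 1 was left out (adjusted p 0.054 to 0.45). Its harringtonine call was lost without control replicate 1 (0.56, adjusted p 0.091), and its puromycin call without control replicate 1 (0.42, adjusted p 0.23) or puromycin replicate 2 (0.51, adjusted p 0.11). With DESeq2 size factors in place of TMM, 2 members were lower with DMDA-PatA, and with the DESeq2 test 1, and that test called 4 members lower with puromycin.

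Length went with these values among the members and among all coding sequences. All 6 members with a coding sequence of up to 300 nt were relatively higher with harringtonine and all 6 with puromycin, where 77.9% and 83.9% of all 330 coding sequences of that length were. With DMDA-PatA 4 of the 6 were higher (Timm8b, Timm13, Tomm6, Tomm7) and Timm9 was lower, where 41.8% of the 330 were higher. The Spearman correlation of the relative value with coding length over the 21 members was −0.52 in the DMDA-PatA contrast, −0.69 in that of harringtonine and −0.81 in that of puromycin, against −0.22, −0.48 and −0.57 over 12298 coding sequences. These are descriptions over genes of the same libraries. Among the longer members, Timm44, Timm50 and Tomm70a (1059 to 1833 nt) were lower with harringtonine and puromycin, whereas Tomm40 (1083 nt) was higher with both.

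**Figure D3:**
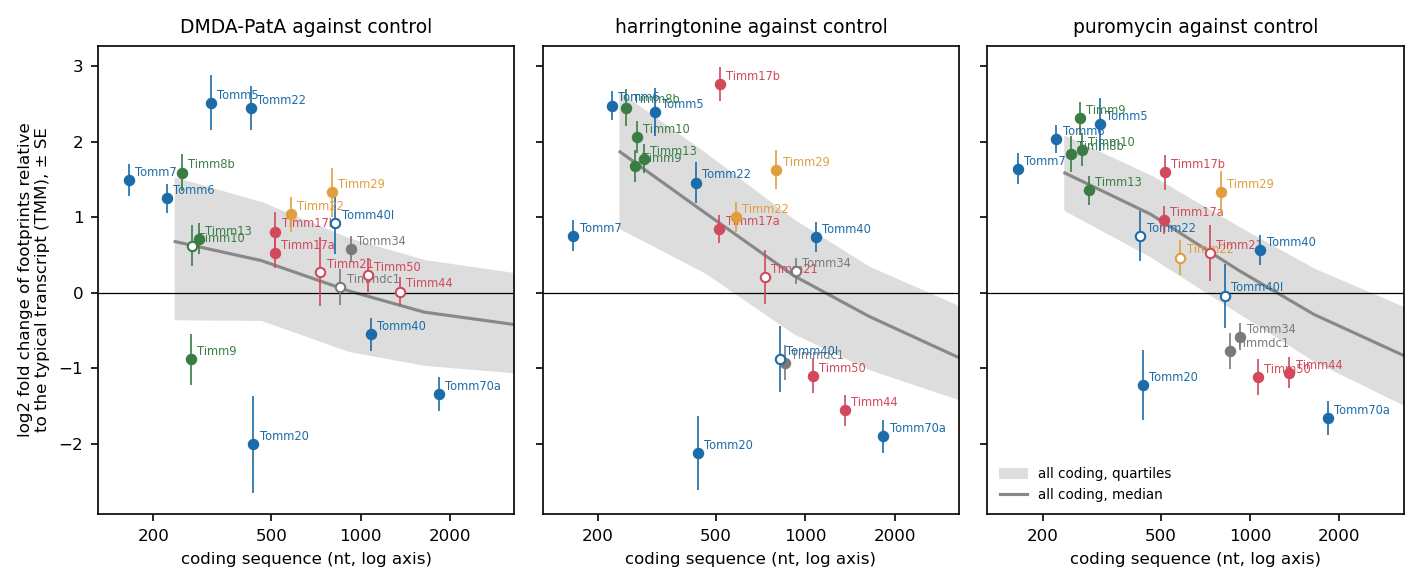
Log2 change relative to the typical transcript (y axis) against coding sequence length in nt (x axis, log scale) for the 21 measured members, 1 panel per drug, with bars for the SE of the edgeR fit, filled points for an adjusted p under 0.05, and a grey line and band for the median and quartiles of all coding sequences in 5 length classes. With DMDA-PatA Tomm5 and Tomm22 lie above the grey line at 2.52 and 2.45, and Tomm20 lies below it with all 3 drugs (−2.005, −2.12 and −1.22).

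As fold inhibition, the ratio of mean control to mean treated footprints, the members had lower medians than coding sequences at large. That comparison was not matched for coding length. Over the 17 members with at least 100 transcriptome reads and 100 control footprints, the median was 12.6-fold with DMDA-PatA (16.6 and 10.4 in the 2 replicate pairs, SD 4.37), 4.00-fold with harringtonine (2.87 and 4.71, SD 1.30) and 2.81-fold with puromycin (3.05 and 2.56, SD 0.347). Over 8461 coding sequences with the same cutoffs the medians were 22.4, 8.70 and 6.32. The pairs join libraries of the same number, which did not deviate together, so each SD is that of 1 arbitrary pairing. No test was run on these medians. Among these 17, single members ran from 5.89-fold (Timm8b) to 74.9-fold (Tomm20) with DMDA-PatA, from 1.13 (Timm17b) to 31.5 (Tomm20) with harringtonine and from 1.08 (Timm9) to 17.6 (Tomm70a) with puromycin.

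With DMDA-PatA 5 of the 14 members tested on the 5' UTR were called higher, against 14.7% of 6647 5' UTRs, and 1 lower, against 29.0%. Of these 5, Timm17a and Timm8b passed the filter only through their DMDA-PatA reads. Tomm6 and Tomm34 passed it only through reads of treated libraries. The values of these genes are therefore given as a description, and the count is no support. The 5' UTR of Timm17a held 0 and 1 read in the controls and 45 and 82 with DMDA-PatA, which is 0 and 0.906 against 28.4 and 66.6 normalised footprints. That of Timm8b held 0 and 1 read against 53 and 84 (33.5 and 68.2 normalised), and that of Tomm6 0 and 1 against 25 and 48 (15.8 and 39.0 normalised). These 3 were next to empty without drug and filled in both treated libraries.

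As the ratio of pooled reads, scaled by the size factors, the 5' UTR of Timm17a gained 88.0-fold (95% exact interval 15.5 to 3503), that of Timm8b 94.9-fold (16.8 to 3777) and that of Tomm6 50.6-fold (8.80 to 2025). These intervals cover counting error only. Over the same libraries the coding footprints of these genes fell by 3.66, 2.56 and 2.94 on the log2 scale.

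Tomm7 had the most 5' UTR reads of the risers, 14 and 17 in the controls and 297 and 506 with DMDA-PatA, a log2 change of 4.22 ± 0.54 (adjusted p 6.7e-13). Tomm34 had 5 and 5 reads against 42 and 30, a log2 value of 2.28 ± 0.69 given as a description. Without control replicate 2 that value was 2.09 and no longer called. The one member that fell was Timm21, with 77 and 91 reads against 40 and 52 (−1.37 ± 0.49, adjusted p 0.015). In all 6 genes the groups stand apart. The fall of Timm21 was lost without control replicate 1, control replicate 2 or DMDA-PatA replicate 1 (adjusted p 0.10, 0.068 and 0.13), and without either DMDA-PatA library Timm17a and Timm8b no longer passed the filter, since 1 library alone held 10 reads, which left 3 risers. The 5' UTR of Timm17b, under the filter, had 0 reads in the controls and 4 and 6 with DMDA-PatA.

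In the listed transcripts the 5' UTR of these 5 members was 55 nt long for Timm8b, 59 nt for Timm17a, 88 nt for Tomm7, 130 nt for Tomm34 and 157 nt for Tomm6. The authors left out the last 10 nt before the start codon, so the reads do not lie directly at the start codons printed above. Other members gave no call: Timm9 (369 nt) had 56 and 80 reads against 60 and 87 (−0.36 ± 0.47), Timm13 (226 nt) 44 and 63 against 45 and 64 (−0.45 ± 0.48) and Tomm40l (209 nt) 59 and 59 against 61 and 56 (−0.55 ± 0.49). Tomm70a (148 nt) had 159 and 225 against 218 and 320 (0.02 ± 0.44), and Timmdc1 (129 nt) had 28 and 21 against 22 and 31 (−0.41 ± 0.56). In these 5 genes the treated and control libraries held similar numbers of 5' UTR reads, while the coding footprints of each fell.

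**Figure D4:**
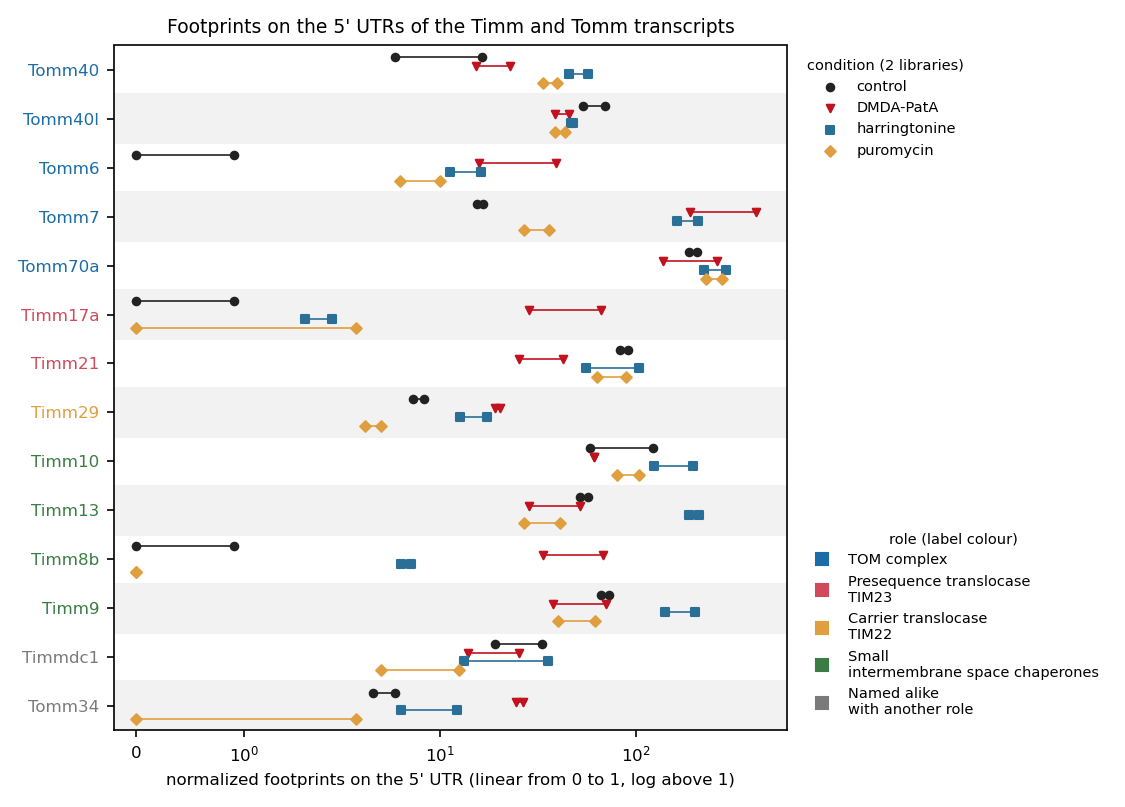
Spike-in normalised 5' UTR footprints of the members in each of the 8 ribosome profiling libraries, 1 line per gene and 1 point per library coloured by condition; the axis is linear from 0 to 1 and logarithmic above. Timm17a, Timm8b and Tomm6 lie at 0 or 0.906 in the controls and between 15.8 and 68.2 with DMDA-PatA. Across all conditions the points of Tomm70a stay between 138 and 287 and those of Tomm40l between 38.5 and 69.6.

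Harringtonine raised the 5' UTR footprints of 6 of 14 members, against 35.1% of all 5' UTRs, and lowered none, against 5.21%. Of the 14, Timm17a, Timm8b, Tomm6, Tomm34 and Timm29 passed the filter through treated libraries alone. Tomm40, with 5 and 18 control reads, also needed a treated library to pass. Neither count is therefore support, and the values of Tomm6, Timm8b and Tomm40 are a description. No member had an unadjusted p under 0.05 in the lower direction in edgeR, and DESeq2 and limma called none lower. Tomm7 went from 14 and 17 to 203 and 230 reads (3.51 ± 0.53, adjusted p 3.5e-09), Timm13 from 44 and 63 to 184 and 300 (1.86 ± 0.48, adjusted p 0.00068), and Tomm40 from 5 and 18 to 56 and 65 (2.15 ± 0.57, adjusted p 0.0011). Tomm6 went from 0 and 1 to 16 and 16, a ratio of 25.9 (4.32 to 1053), and Timm8b from 0 and 1 to 7 and 9, a ratio of 12.9 (2.01 to 542). Timm9 rose from 56 and 80 to 196 and 200 (1.29 ± 0.47, adjusted p 0.019). All treated libraries are above all controls here. Of these calls that of Timm9 was lost without either control or without harringtonine replicate 1 (adjusted p 0.15, 0.13 and 0.14), those of Tomm40 and Timm8b without control replicate 1 (0.094 and 0.12), and that of Timm8b also with DESeq2 (0.057), which called 5 members.

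Timm17a, one of the largest gains with DMDA-PatA, held 2 and 4 reads with harringtonine (adjusted p 0.21), and Timm8b gained less. Timm13 and Timm9 showed the opposite pattern, with a rise with harringtonine and values of −0.45 and −0.36 with DMDA-PatA. The difference between those drugs on the 5' UTR was not tested.

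With puromycin no member passed the test on the 5' UTR, against 0.557% higher and 0.406% lower over all 5' UTRs. In edgeR 3 members had an unadjusted p under 0.05, DESeq2 called 0 and limma called 1. Tomm6 had 3 and 8 reads (adjusted p 0.092) and Tomm40 19 and 27 (adjusted p 0.20), both above their controls. Timmdc1 had 6 and 4 against 28 and 21 (adjusted p 0.27), below them.

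The share of a gene's footprints that lay on the 5' UTR, out of 5' UTR and ORF together, does not depend on the scaling. Over the members it was 3.80% and 3.59% in the controls, 44.2% and 44.8% under DMDA-PatA, 19.6% and 25.5% under harringtonine and 12.1% and 11.8% under puromycin. The 95% Wilson intervals, which cover counting error only, were 3.50% to 4.12% and 3.33% to 3.86% in the controls and 42.3% to 46.2% and 43.1% to 46.5% with DMDA-PatA. Over all coding transcripts it was 4.10% and 4.36% in the controls, then 39.0% and 39.4%, 29.6% and 33.4%, and 20.7% and 18.1%. The pooled shares were not tested against each other, and with DMDA-PatA Tomm7 alone held 297 of the 1069 and 506 of the 1506 5' UTR reads of the members. The median share over 19 single members was 33.7% with that drug. Tomm7 moved from 2.08% and 2.00% to 68.0% and 73.7% with DMDA-PatA and to 42.2% and 61.5% with harringtonine, but only to 5.65% and 7.80% with puromycin. Its share in the transcriptome libraries was 52.6% and 51.4%. Of its windows of 30 bases, 41.9% on the ORF and 100% on the 5' UTR had 1 match in the genome, so its shares lean to the 5' UTR. Tomm70a moved from 5.22% and 5.74% to 70.8% and 74.8%, 63.9% and 70.9%, and 63.6% and 52.0%. Timm21 and Tomm40l already had 49.7% and 52.0%, and 47.2% and 42.8%, on the 5' UTR without drug. In the transcriptome libraries the share was 43.8% and 47.4% for Timm21, 19.9% and 20.0% for Tomm40l, and 2.48% and 1.79% for Tomm70a.

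Whether the 5' UTR and the ORF of a gene responded differently was tested in 1 model over both regions, in which the scaling of a library cancels. With DMDA-PatA the 5' UTR kept more than the ORF in 14 of 14 members, against 93.6% of 6497 transcripts, and less in none, against 0.139%. With harringtonine this held for 14 of 14 (13 without harringtonine replicate 2, where Timm17a was at 3.46 with adjusted p 0.070), against 95.4%, and for none in reverse, against 0.123%. With puromycin it held for 8 of 14, against 78.3%, and for none in reverse, against 0.0616%. Among the 14 are members, named below, that passed the 5' UTR filter through treated libraries alone. No count over the 14 is therefore support, with any drug. The reverse direction had no unadjusted p under 0.05 among the members with any drug in edgeR, the only tool run on this model.

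The largest differences with DMDA-PatA were those of Timm17a (9.84 ± 0.72), Timm8b (8.95 ± 0.75) and Tomm6 (8.32 ± 0.62), on the log2 scale. These 3, Tomm34 (5 and 5 control reads) and Timm29 (7 and 8) passed the 5' UTR filter through treated libraries alone. Tomm40 (5 and 18) also needed a treated library to pass. The values of all these genes are a description, and the count of 14 is no support with any drug. With harringtonine the largest differences were those of Tomm7 (5.68 ± 0.50, adjusted p 2.8e-09), Tomm70a (5.16 ± 0.31) and Tomm6 (4.83 ± 0.81). With puromycin they were those of Tomm70a (4.52 ± 0.32, adjusted p 2.5e-09), Tomm6 (4.16 ± 0.98) and Tomm40 (3.52 ± 0.48). By role, all 5 TOM genes tested were called with puromycin and 0 of the 4 small chaperones, whose values ran from −1.80 (Timm8b, which had no 5' UTR read with puromycin) to 0.65 (Timm10), none with an unadjusted p under 0.05. Over all coding sequences up to 300 nt, 33.8% of 207 were called with puromycin. Of the 8 calls with puromycin, those of Timm17a (3.40, but 2.56 with adjusted p 0.12 without control replicate 1 and −0.998 without puromycin replicate 2), Tomm40l and Tomm7 (adjusted p 0.070 and 0.066 without puromycin replicate 2) and Timmdc1 (0.11 without control replicate 2 and 0.35 without puromycin replicate 1) rested on 1 library, and without puromycin replicate 2 the count was 5.

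**Figure D5:**
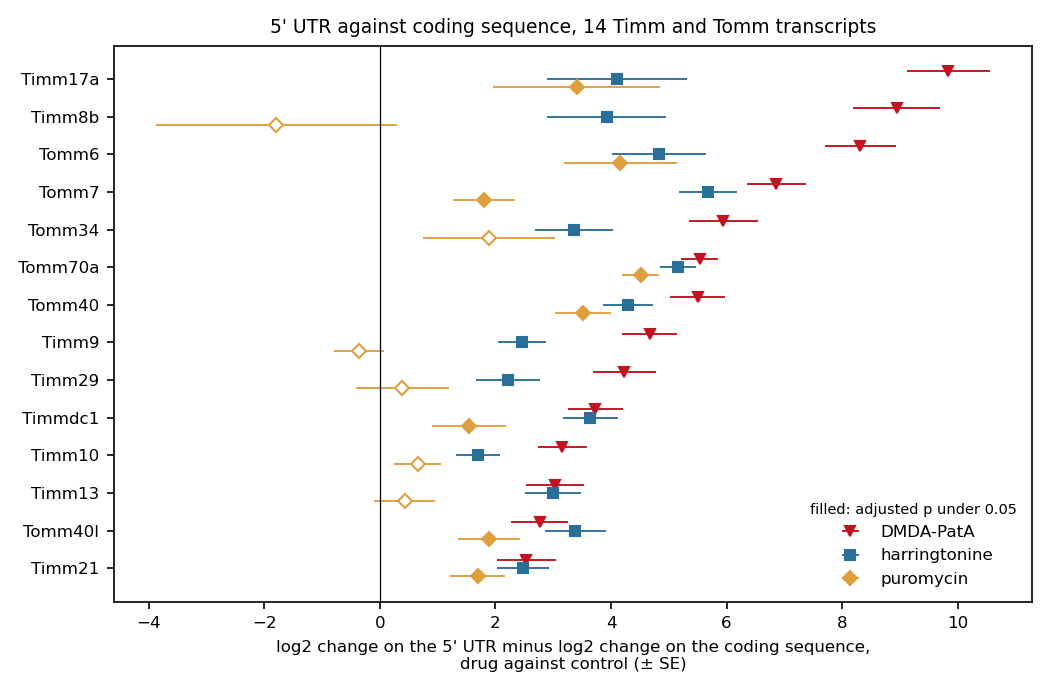
Difference between the log2 responses of the 5' UTR and of the ORF (x axis) for the 14 members with enough reads in both regions, 1 colour per drug, with bars for the SE of the edgeR fit and filled points for an adjusted p under 0.05. Values above 0 mean that the 5' UTR kept or gained more than the ORF; Timm17a and Timm8b reach 9.84 and 8.95 with DMDA-PatA, and the small chaperones sit near 0 with puromycin except Timm8b at −1.80.

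An upstream start codon is one feature that the choice of members did not use. The letters ATG were searched on the transcript strand only, in 5' UTRs of at least 30 nt with an intact reading frame at the listed start. They were found in 6 of 17 members (35.3%) and in 54.4% of 10449 coding transcripts, and the median 5' UTR was 150 nt and 184 nt long. Tomm40l, the member with the lowest translation efficiency, has 7 of them in 209 nt. One, at chr1:171222134-171222136 on the minus strand, opens a frame of 117 nt that ends before the main start, and its surroundings and those of the main start at chr1:171222016-171222018 are shown with the codon in capitals.
Tomm40l upstream: atggtctagcattgaaccatATGgaagttt
Tomm40l main start: tccctgtcctctggattaaaATGgggaaca

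Timm13, whose 5' UTR gained footprints with harringtonine, has 2 upstream start codons that each open a frame of 36 nt. Timm9, which gained there as well, has 4. Timm29, a subunit of the carrier translocase, has 2 upstream start codons whose frames do not stop before the main start. The one at chr9:21592761-21592763 on the plus strand opens a frame of 999 nt. That frame is the main reading frame itself, begun further upstream and ending at the same stop codon. The other opens a frame of 57 nt that is not in the main reading frame. Timm17a, Timm8b, Tomm6, Tomm34 and Tomm40 have none, and Tomm7 has 1. Timm8b and Timm9 are outside the 17, since their reading frame was found at a shifted start. A match is a description of letters and says nothing about use of the codon.

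Other genes of protein import were counted in the same fits. Of 23 further import genes, 22 were listed and 21 passed the filter (Pam16 was not analysed here). Their coding footprints fell in 21 of 21 with DMDA-PatA (median log2 change −4.04), against 99.3% of all transcripts, in 21 with harringtonine (−2.95), against 92.9%, and in 18 with puromycin (−2.35), against 90.1%. With DMDA-PatA the outer membrane assembly protein Samm50 fell most, from 3286 and 3149 to 63.1 and 67.4 normalised footprints (−5.62 ± 0.54), and the metaxin Mtx3 least, from 37.7 and 36.3 to 6.31 and 4.87 (−2.68 ± 0.55). With harringtonine the range ran from the matrix chaperonin Hspd1 (−5.57 ± 0.54) to the motor cofactor Dnajc15 (−1.20 ± 0.42), and with puromycin from the peptidase Mipep (−4.40 ± 0.52) to Chchd4, which oxidises small intermembrane space proteins (−0.51 ± 0.43, not called). Relative to the typical transcript 5 of 21 were higher and 3 lower with DMDA-PatA, against 18.8% and 23.6%. With harringtonine 6 were higher and 6 lower, against 26.6% and 30.0%, and with puromycin 5 and 6, against 24.3% and 24.9%. In translation efficiency 16 of 22 were higher, against 34.2%, and 2 lower, against 36.5%. On the 5' UTR 3 of 11 were called higher with DMDA-PatA, against 14.7%, and 8 with harringtonine, against 35.1%. Genes can pass the 5' UTR filter through treated libraries alone, so neither of these counts is support.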

How the data were processed

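Members and gene lists were chosen with earlier results of these data known. The authors aligned SOLiD reads to mm10, left out reads with several matches, kept footprints within a length range, assigned them to 1 transcript per gene and deposited normalised signal values per region, with footprint libraries scaled to the spike-in and transcriptome libraries to each other. Every value was a whole multiple of that of 1 read (100% within 0.01), so whole reads were recovered and used for the count tests, which would otherwise need counts as deposited. The value of 1 read gave the authors' size factors.

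Reads per ORF or 5' UTR were tested with edgeR 4.0.16 (quasi-likelihood, Benjamini-Hochberg adjustment over all tested features, threshold 0.05, 10 or more reads in 2 or more libraries), the 4 footprint conditions in one fit without covariates. Relative changes and translation efficiency used TMM. DESeq2 1.42.0, limma 3.58.1 on log2(value + 1), other filters and scalings, leaving out libraries and a replicate block were alternatives. The tests were tried on simulated data. R 4.3.3, Python 3.11.15 and pandas 2.3.3 were used. Transcripts and positions came from GENCODE M21, which held 14403 of the 14534 coding transcripts listed.

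Fold changes given as log2 carry the SE of the fit, and other errors are the SD of 2 replicates. For the median fold inhibitions the SD is over 2 pairs of same-numbered libraries. The study calls the replicates biological. Values are named for the 2 largest and 2 smallest ORF changes per drug, up to 6 members per drug past the relative test, up to 4 per drug and direction past the 5' UTR test, up to 3 per drug past the test of 5' UTR against ORF, the 3 highest and 3 lowest translation efficiencies, and up to 6 other import genes. Further genes named among the members were chosen after their values were seen.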

Additional observations from a re-analysis of the deposited data

Results flagged for a closer look

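Footprints on the 3' UTR were used in no comparison. Members with at least 10 such reads with a drug, and with both drug libraries above both controls, are given as values. With puromycin Tomm7 had a mean of 41.2 normalised 3' UTR footprints against 22.2 in the controls (49 reads against 42), Timm29 20.3 against 16.9 (26 reads against 33), and Timm13 18.2 against 12.4 (24 reads against 24). With harringtonine Timm8b had 5.30 against 2.09 (12 reads against 4). These differences were not tested.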

How the results depend on the processing

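Of 193 calls on single members, 152 held under every alternative, and 9 of the other 41 changed under an alternative other than leaving out a library. When DMDA-PatA and harringtonine libraries swapped size factors, 1 member was higher with DMDA-PatA than with harringtonine and 7 were lower with harringtonine than with puromycin, none of either as deposited, and the median replicate ratio was 0.892 with DMDA-PatA and 1.10 with harringtonine. The members relatively lower with DMDA-PatA numbered 1 with the DESeq2 test and 2 with its size factors, against 4. On the 5' UTR limma called 1 member higher with puromycin, against 0. With equal total reads in place of the spike-in, which takes out the shared fall, the median fold inhibitions were 0.606, 0.616 and 0.513. Over 8461 coding sequences they were then 1.09, 1.35 and 1.16. With cutoffs of 20 transcriptome reads and 4 control footprints that of puromycin was 3.22, against 5.63 over 12892 coding sequences.

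Leaving out 1 library at a time, 7 to 15 members were lower with DMDA-PatA than with harringtonine and 0 to 6 lower with harringtonine than with puromycin. The relatively lower members numbered 1 to 4 with DMDA-PatA and 3 to 6 with puromycin. On the 5' UTR 3 to 5 rose and 0 to 1 fell with DMDA-PatA, 3 to 6 rose with harringtonine, and 5 to 8 kept more than the ORF with puromycin. The log2 change ranged from −1.27 to 0.16 for Tomm5 and from −1.28 to 0.29 for Timm8b with harringtonine, and from −0.91 to 0.39 for Tomm5 and −0.31 to 0.10 for Timm9 with puromycin. The difference between regions ranged from −0.998 to 5.96 for Timm17a with puromycin. Causes of these changes were not tested.

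Same-numbered libraries did not deviate together (correlations of −0.021 to 0.051 over 12298 transcripts), so the main tests did not take the numbers as pairs. With the replicate block 10 members were lower with DMDA-PatA than with harringtonine, against 12 (Tomm34 and Tomm5 were lost, adjusted p 0.073 and 0.057), and no other call changed. At 618334 to 1944784 coding reads, genes with few reads such as Tomm20 and most 5' UTRs are limited by depth in the drug libraries.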
